A study of Mus musculus with 12 samples.

Results

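Expression of 10 genes for enzymes of hepatic steroid metabolism was examined in the livers of adult male mice that had or had not been exposed to vitamin D deficiency before birth. The genes were a fixed list of symbols (Hsd3b2, Hsd3b3, Hsd3b5, Hsd17b2, Hsd11b1, Akr1c6, Akr1c19, Akr1d1, Srd5a1 and Cyp17a1), matched to the GENCODE annotation of GRCm38, and all 10 were found among the 52636 genes counted. The rule holds no expression threshold, but the list was drawn up with earlier results of these mice known.

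All F1 mice were C57Bl/6J males killed at 16 weeks of age. The mothers of the VDD-F1 group received feed without vitamin D, with a calcium gluconate supplement, for 5 weeks before mating and during pregnancy, and the mothers of the VDS-F1 group received a vitamin D sufficient feed over the same time. The sires ate a control feed, every dam was moved to the VDS feed after delivery, and all offspring ate the VDS feed from weaning. The groups thus differed in the diet of the mother up to delivery, and the study describes the VDD-F1 pups as still short of vitamin D in early life, so prenatal and early postnatal exposure cannot be told apart. RNA of the left lateral lobe was sequenced after ribosomal RNA removal, with 1 library per mouse and 6 mice per group (VDD1 to VDD6 and VDS1 to VDS6). Litters are not given in the labels, so the p-values measure the spread between mice, some of which may be littermates. The study's supplement records a liver weight for 7 of the mice (VDS3 to VDS6 with VDD4 to VDD6) and none for the other 5 (VDD1 to VDD3, VDS1 and VDS2). The mice were therefore also compared by this set, whose meaning is not stated in the sources used here.

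The liver does not make most steroids but changes and clears those that reach it. Dehydrogenases and reductases act on the hydroxyl and keto groups of androgens, estrogens, progestins and glucocorticoids, and reductases of the steroid A ring either inactivate a steroid or, as with dihydrotestosterone, make a more potent one. In rodents many of these genes are expressed at different levels in males and females, under the control of the pulses of growth hormone and the transcription factor STAT5B, and Hsd3b5 is a classical male-specific gene of the mouse liver.

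The libraries held 25897868 to 36403413 fragments, of which 14275793 to 20815066 were counted on the strand of a gene. Values are given as CPM, the counts scaled to the TMM-adjusted library size, and a gene was called different when edgeR's quasi-likelihood test gave a Benjamini-Hochberg adjusted p under 0.05 and the difference exceeded 1 on the log2 scale in either direction. All 10 genes had a mean count above the filter of 12, which left 12453 genes. Hepatocyte markers summed to 91205 to 110747 CPM in VDD-F1 and 82368 to 99177 CPM in VDS-F1, so hepatocyte RNA was present in each library. Of 9 markers of adrenal cortex and gonad, 4 (Cyp11a1, Cyp11b1, Cyp11b2 and Mc2r) had 0 counts in all 12 libraries, and over all libraries 4 counts of Hsd3b1, 1 of Nr5a1, 75 of Cyp21a1 and 110 of Star were found. The other marker, Mrap, had 10125 counts, up to 1160 in a library, and the list summed to 34.2 to 59 CPM in VDD-F1 and 39 to 69.8 CPM in VDS-F1. Since RNA of whole tissue was measured, fewer cells of a type and less RNA per cell cannot be told apart.

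The 3 Hsd3b genes lie on the minus strand of chromosome 3 (GRCm38, GENCODE M21): Hsd3b5 at chr3:98618634-98630252, Hsd3b2 at chr3:98709255-98724543 and Hsd3b3 at chr3:98741523-98763127. Their promoters are shown because Hsd3b5 had the largest difference between the diets among the 10 genes and its 2 relatives on the same strand had smaller ones. The promoter of Akr1c19 (gene at chr13:4228700-4252843, plus strand) is shown because this gene had the smallest p between the sets of mice. The sequences are RefSeq windows on GRCm38.p6 from 250 bases before to 50 bases after a start site, in the direction of the gene, with the letters of 2 searched motifs in capitals: TTCNNNGAA, the motif of STAT factors, and AGAACA, a short motif of the glucocorticoid receptor. Both strands were searched, and no match of the motifs overlapped another.
Hsd3b5, chr3:98645485-98645784, minus strand: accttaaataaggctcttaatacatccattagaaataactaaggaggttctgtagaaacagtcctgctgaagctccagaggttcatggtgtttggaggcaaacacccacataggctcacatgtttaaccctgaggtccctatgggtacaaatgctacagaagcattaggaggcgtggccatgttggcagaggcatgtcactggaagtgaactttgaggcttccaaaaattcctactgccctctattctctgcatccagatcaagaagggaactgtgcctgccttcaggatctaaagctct
Hsd3b3, start 1, chr3:98763079-98763378, minus strand: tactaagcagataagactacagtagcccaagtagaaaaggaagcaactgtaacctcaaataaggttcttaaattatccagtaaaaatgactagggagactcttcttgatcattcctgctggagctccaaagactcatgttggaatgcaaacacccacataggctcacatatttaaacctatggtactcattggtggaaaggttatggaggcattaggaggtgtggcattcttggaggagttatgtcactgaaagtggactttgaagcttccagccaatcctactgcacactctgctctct
Hsd3b2, chr3:98724494-98724793, minus strand: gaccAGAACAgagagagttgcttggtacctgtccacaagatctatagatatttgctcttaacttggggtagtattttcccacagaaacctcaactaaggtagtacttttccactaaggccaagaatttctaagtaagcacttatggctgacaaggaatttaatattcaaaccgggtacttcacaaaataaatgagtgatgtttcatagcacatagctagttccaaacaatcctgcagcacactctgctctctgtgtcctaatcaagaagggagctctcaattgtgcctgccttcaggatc
Akr1c19, chr13:4233490-4233789, plus strand: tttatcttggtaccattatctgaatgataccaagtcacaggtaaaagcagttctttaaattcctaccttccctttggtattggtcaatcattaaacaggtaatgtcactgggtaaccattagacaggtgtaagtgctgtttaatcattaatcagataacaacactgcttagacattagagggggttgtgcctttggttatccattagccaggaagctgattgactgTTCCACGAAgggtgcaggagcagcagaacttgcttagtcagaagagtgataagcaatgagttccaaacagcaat

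The RefSeq start of Hsd3b5 lies upstream of the gene as GENCODE M21 draws it, and that of Akr1c19 lies inside the gene as drawn there. In a global alignment, the windows of Hsd3b5 and Hsd3b3 had 189 identical bases of 300 (63%), those of Hsd3b5 and Hsd3b2 172 (57.3%), and those of Hsd3b3 and Hsd3b2 156 (52%). The table held 9 start sites for 8 of the 10 genes, with no entry for Hsd17b2 and Cyp17a1. TTCNNNGAA was present in 1 of the 9 windows, that of Akr1c19, where it began 24 bases before the start, against 8.3% of all 32851 promoters in the table. AGAACA was present in 1 window, that of Hsd3b2, 246 bases before the start, against 19% of all promoters.

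Per exonic length, the enzymes spanned a wide range in the VDS-F1 livers. The length is the union of annotated exons, 6396 bases for Hsd3b3 and 1549 bases for Hsd3b5. The order depends on it, since the mean CPM of Hsd3b3 was above that of Hsd3b5 in VDS-F1 (221 against 184 CPM). Akr1c6, a reductase that forms testosterone from androstenedione, had the highest level at 246 ± 37.8 RPKM (CPM divided by exonic length in kilobases; SD, n = 6), above Hsd3b5 at 119 ± 16.1 RPKM with no overlap between mice. Hsd11b1, which regenerates active corticosterone, followed at 93.3 ± 4.62 RPKM, and its range overlapped that of Hsd17b2 at 82.3 ± 8.92 RPKM. Next came Akr1d1, the steroid reductase that also acts in bile acid synthesis, at 57.6 ± 5.53 RPKM, Hsd3b3 at 34.6 ± 3.74 RPKM and Srd5a1 at 26.1 ± 3.94 RPKM, the ranges of Hsd3b3 and Srd5a1 overlapping. The lowest levels were those of Akr1c19 (9.35 ± 4.26 RPKM), Hsd3b2 (9.2 ± 1.47 RPKM) and Cyp17a1 (5.51 ± 6.26 RPKM), whose ranges overlapped in that order. In VDD-F1 the mean of Hsd3b5 was 36.1 ± 24.4 RPKM, under those of Hsd11b1, Hsd17b2 and Akr1d1 (76.8, 59.1 and 47.9 RPKM), which it exceeded in VDS-F1.

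Between the prenatal diets, 8 of the 10 genes had a lower and 2 a higher mean level in VDD-F1. None passed the thresholds in edgeR, against 0.0402% of all genes tested, which were Tceal9 and Abhd2 (higher) and Mup1, Mup12 and Cyp1a2 (lower), named after their values were seen. When 1 mouse was left out, 0 to 260 of all genes were called, the most without VDD1. DESeq2 also called 0 of the 10, against 2.03% of all genes, and limma voom with sample weights called 1, Hsd3b5, against 2.02%. An unadjusted p under 0.05 was reached by 4, all lower in VDD-F1, against 15.8% of all genes in either direction. The median log2-fold change of the 10 genes was -0.27, where that of all genes was 0.0041 and 49.2% of genes were lower in VDD-F1.

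**Figure D1:**
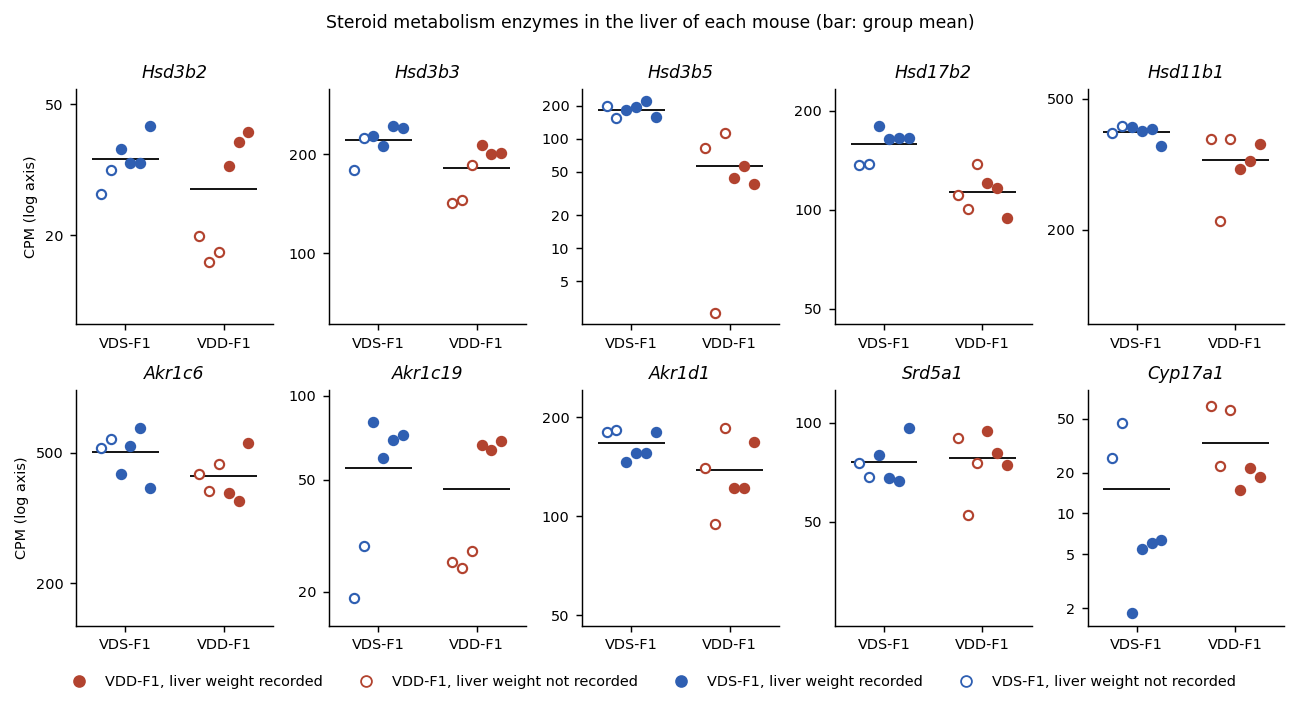
CPM of each of the 10 enzymes (log axis) in the 6 VDS-F1 and 6 VDD-F1 mice, with 1 point per mouse, filled where a liver weight was recorded and open where not, and a bar at the group mean. Hsd3b5 is the only panel in which the diets do not overlap, and in the panel of Akr1c19 the open points lie below the filled ones in both diets.

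Hsd3b5 encodes a hydroxysteroid dehydrogenase that in mouse liver works as a reductase of 3-keto steroids such as dihydrotestosterone. In VDS-F1 its level ran from 154 CPM through a median of 188 CPM to 220 CPM, and in VDD-F1 from 2.56 CPM through 50 CPM to 112 CPM. Every VDD-F1 mouse was below every VDS-F1 mouse, the only gene of the 10 without overlap, against 1.18% of all genes. The means were 55.9 ± 37.7 CPM in VDD-F1 and 184 ± 24.9 CPM in VDS-F1 (SD, n = 6 each). The log2-fold change was -1.73 with a standard error of 0.51. The unadjusted p was 0.00413 and the adjusted p 0.125 in edgeR, place 409 of 12453 genes by p. In an exact permutation test of the log2 CPM, two-sided over all splits of the mice into 6 and 6, p was 0.00216, the smallest this design allows. The adjusted p was 0.0602 in DESeq2 and 0.0187 in limma voom.

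The lowest Hsd3b5 value belonged to VDD2, with 49 counts where the other VDD-F1 libraries held 633 to 1486. Without VDD2 the log2-fold change was -1.47 and the adjusted p 0.0462 in edgeR, so the gene was then called. That library also had the highest sums of the markers of stellate cells (875 CPM, 304 to 562 CPM in the other VDD-F1 mice), cholangiocytes (115 CPM, 23.9 to 71.7 CPM) and lymphocytes (7.99 CPM, 0.527 to 3.31 CPM). The part of these cells in the result was not tested. Of the 10 enzymes, 8 were below the whole VDS-F1 range in VDD2, against 26% of all genes, and 2 to 5 in each of the other VDD-F1 mice, against 14.4% to 19.2% of all genes.

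Hsd3b3 and Hsd3b2 encode relatives that convert 3-hydroxy-5-ene steroids to 3-keto-4-ene steroids. Hsd3b3 ran from 142 CPM through 194 CPM to 213 CPM in VDD-F1 and from 179 CPM through 226 CPM to 244 CPM in VDS-F1, so the groups overlapped. Its log2-fold change was -0.29 with a standard error of 0.12 (adjusted p = 0.263 in edgeR; exact permutation p = 0.0346, unadjusted). Hsd3b2 ran from 16.6 CPM through 26.1 CPM to 41.1 CPM in VDD-F1 and from 26.8 CPM through 33.1 CPM to 43 CPM in VDS-F1, with a log2-fold change of -0.29, a standard error of 0.22 and an adjusted p of 0.551. Its log2-fold change was -0.18 without VDD2 and -0.44 without VDD6. The 3 lowest VDD-F1 values of Hsd3b2 were those of VDD1 to VDD3.

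The make-up of the Hsd3b counts is given as a description. Of all counts of Hsd3b1 to Hsd3b6, Hsd3b5 took 41.9 ± 4.83% in VDS-F1 and 19.7 ± 12.9% in VDD-F1 (SD, n = 6 each), and the highest VDD-F1 share, 35.4%, was below the lowest VDS-F1 share, 35.8%. Hsd3b3 took 50.3 ± 3.92% in VDS-F1 and 69.8 ± 11.1% in VDD-F1, with 54.7% as the highest VDS-F1 share and 58.1% as the lowest VDD-F1 share. The shares are parts of the same sum, so this is not a separate result from the lower share of Hsd3b5. In CPM, the mean of Hsd3b3 was lower in VDD-F1 (181 against 221 CPM). The share of Hsd3b2 was 7.74 ± 1.14% in VDS-F1 and 10.5 ± 3.24% in VDD-F1 and overlapped. The other family members were at 4 counts (Hsd3b1), 0 counts (Hsd3b4) and 6 counts (Hsd3b6) over all libraries. Paralogs share sequence, and 21.2% of the 50-base windows of Hsd3b5, 25.1% of those of Hsd3b2 and 6.69% of those of Hsd3b3 occur in another annotated transcript, so counts of fragments that map once leave part of these genes uncounted. Zfp697 overlaps 281 exonic bases of Hsd3b3 and 99 of Hsd3b2 on the opposite strand, and with counts that ignore the strand the VDS-F1 shares were 44.3% for Hsd3b3 and 47.8% for Hsd3b5.

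**Figure D2:**
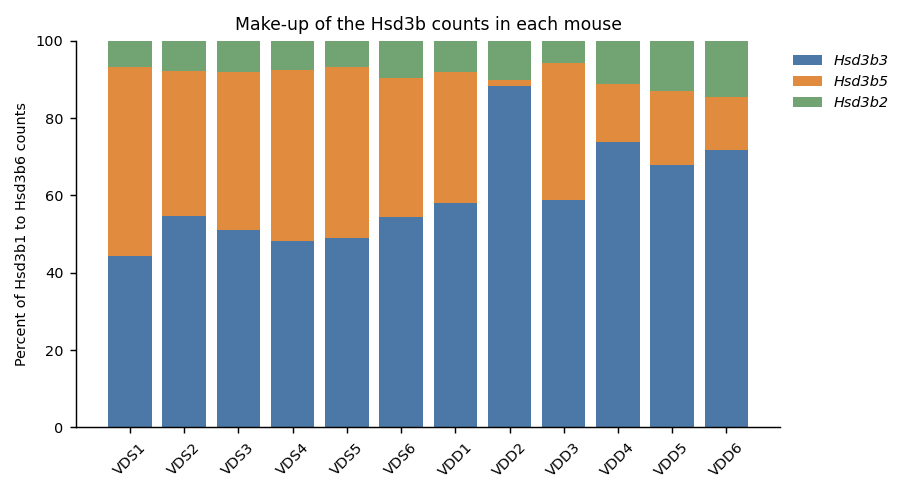
Percent of the summed Hsd3b1 to Hsd3b6 counts taken by Hsd3b3, Hsd3b5 and Hsd3b2 (stacked bars on a scale from 0) in each of the 12 mice, VDS-F1 on the left and VDD-F1 on the right. The Hsd3b5 part is 35.8% or more in each VDS-F1 mouse and 1.56% in VDD2.

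Hsd17b2 (chr8:117701904-117759027, plus strand) encodes the dehydrogenase that turns estradiol into estrone and testosterone into androstenedione. It ran from 94.3 CPM through 114 CPM to 138 CPM in VDD-F1 and from 137 CPM through 164 CPM to 180 CPM in VDS-F1, and only VDD3 reached the VDS-F1 range. Its log2-fold change was -0.48 with a standard error of 0.10, and its place by p was 53 of 12453, the first of the 10 genes. The adjusted p was 0.0812 in edgeR, 0.00296 in DESeq2 and 0.0126 in limma voom, and the exact permutation p was 0.00433, unadjusted. The size of the change was below the fold threshold in each of these fits.

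Hsd11b1 (chr1:193221634-193264075, minus strand) ran from 212 CPM through 344 CPM to 377 CPM in VDD-F1 and from 360 CPM through 402 CPM to 413 CPM in VDS-F1. VDD2 was again the lowest mouse, and the groups overlapped. The log2-fold change was -0.28 with a standard error of 0.12 (adjusted p = 0.291 in edgeR; exact permutation p = 0.0108, unadjusted), and without VDD2 it was -0.18.

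Among the reductases, Akr1c6 (chr13:4434306-4457877, plus strand) averaged 423 ± 66 CPM in VDD-F1 and 501 ± 76.8 CPM in VDS-F1, with a log2-fold change of -0.24, a standard error of 0.13 and an adjusted p of 0.37. Akr1d1 (chr6:37530173-37568815, plus strand) averaged 139 ± 33.6 CPM and 167 ± 16 CPM, with -0.27, 0.14 and 0.381 for the same quantities. Srd5a1 (chr13:69573449-69611442, minus strand), the steroid reductase that makes dihydrotestosterone from testosterone, averaged 78 ± 14.8 CPM and 75.8 ± 11.4 CPM, and its log2-fold change of 0.04 was within its standard error of 0.13. Of the Srd5a1 transcript windows, 15.1% also occur in the overlapping Gm17108. Akr1c19, an aldo-keto reductase of the same family as Akr1c6, averaged 46.3 ± 22.4 CPM and 55.1 ± 25.1 CPM, with a log2-fold change of -0.25, a standard error of 0.37 and an adjusted p of 0.792, and it ran from -0.43 to -0.11 when each mouse was left out in turn. Each of these 4 genes overlapped between the diets.

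Cyp17a1 (chr19:46667165-46673172, minus strand) encodes the hydroxylase and lyase that leads from progestins to androgens and is best known from the gonads. Its level ran from 14.9 CPM through 22 CPM to 62.2 CPM in VDD-F1 and from 1.86 CPM through 6.21 CPM to 46.1 CPM in VDS-F1. Here the median was higher in VDD-F1, but VDS1 and VDS2 lay inside the VDD-F1 range. The log2-fold change was 1.10 with a standard error of 0.63 (adjusted p = 0.416 in edgeR; exact permutation p = 0.0628, unadjusted). Without VDS2, the log2-fold change was 1.83 (adjusted p = 0.149). Of the 9 markers of steroid-producing tissue, Cyp11a1, Cyp11b1, Cyp11b2 and Mc2r were at 0 counts in every library and Mrap was not (10125 counts in all).

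The enzymes were then compared between the mice that had a liver weight on record and those that had none. With diet in the model, 2 of the 10 genes passed the thresholds between the sets, Akr1c19 and Cyp17a1, against 0.891% of all genes, and 3 had an adjusted p under 0.05, against 2.46%. The same 3 genes did not overlap between the sets in either diet with one direction in both, against 3.74% of all genes.

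Akr1c19 was at 66.9, 64 and 69.1 CPM in VDD4 to VDD6 and at 80.3, 60.1, 69.4 and 72.5 CPM in VDS3 to VDS6. In the mice without a recorded weight it was at 25.4, 24.3 and 28 CPM in VDD1 to VDD3 and at 18.9 and 29.1 CPM in VDS1 and VDS2. The lowest mouse of the first set was above the highest of the second in both diets. The means were 68.9 ± 6.45 CPM (SD, n = 7) and 25.1 ± 3.98 CPM (SD, n = 5), a log2-fold change of 1.45 with a standard error of 0.12 and an adjusted p of 1.91e-05 in edgeR, place 4 of 12453 genes. Within the sets, the log2-fold change between the diets was -0.081 (standard error 0.10) with and 0.11 (standard error 0.21) without a recorded weight.

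Cyp17a1 moved the other way. It was at 14.9, 21.5 and 18.7 CPM in VDD4 to VDD6 and at 1.86, 5.51, 6.04 and 6.37 CPM in VDS3 to VDS6, and at 62.2, 22.5 and 58.1 CPM in VDD1 to VDD3 and 25.7 and 46.1 CPM in VDS1 and VDS2. The mice with a recorded weight were lower in both diets, 2.59-fold in VDD-F1 and 7.26-fold in VDS-F1. The log2-fold change between the sets was -2.06 with a standard error of 0.34 and an adjusted p of 0.00629 in edgeR.

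Hsd3b2 was higher in the mice with a recorded weight, at 36.8 ± 4.2 CPM (SD, n = 7) against 22.5 ± 6.37 CPM (SD, n = 5), with a log2-fold change of 0.69, a standard error of 0.14 and an adjusted p of 0.0198 in edgeR, below the fold threshold. Its 3 VDD-F1 mice with a recorded weight averaged 2.06-fold the other 3, and its VDS-F1 mice with one averaged 1.25-fold the other VDS-F1 mice. For Hsd3b5 the log2-fold change between the sets was -0.22 with a standard error of 0.52, and for Hsd3b3 it was 0.30 with a standard error of 0.095 and an adjusted p of 0.145. The adjusted p was 0.693 or higher for the other 5 genes. Sums of Kupffer cell markers were 79.8 to 180 CPM with and 118 to 241 CPM without a recorded weight, with 0 of 6 markers higher in the first set. Stellate cell markers summed to 286 to 562 CPM with and 304 to 875 CPM without one, with 0 of 6 higher, and markers of sinusoidal endothelium to 216 to 268 CPM and 195 to 235 CPM, with 5 of 6 higher. Of the cholangiocyte markers, 1 of 5 was higher, and their sums were 27.6 to 71.7 CPM and 23.9 to 115 CPM. The part of these cells in the difference between the sets was not tested.

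**Figure D3:**
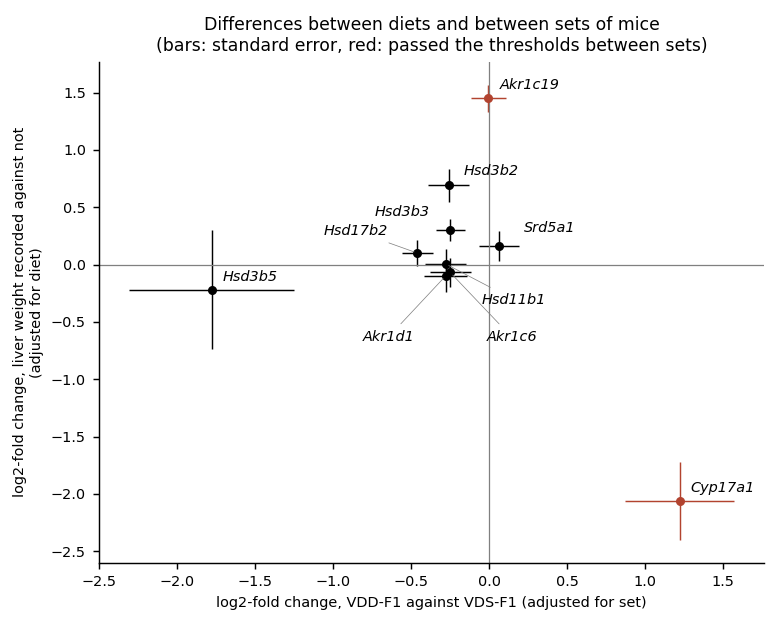
Log2-fold change between the diets adjusted for set (horizontal) and between the sets adjusted for diet (vertical) of the 10 enzymes, with standard errors as bars and the 2 genes that passed the thresholds between the sets in red. Hsd3b5 lies far to the left near the horizontal line, Akr1c19 on the vertical line at the top, and Cyp17a1 at the lower right.

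The comparison of the diets was repeated within each set. In the 7 mice with a recorded weight (3 VDD-F1 and 4 VDS-F1), Hsd3b5 fell and Cyp17a1 rose past the thresholds, 2 of the 10 genes against 4.33% of the 12369 genes tested. Hsd3b5 was at 43.5, 56.4 and 38.7 CPM in VDD-F1 and at 183, 194, 220 and 158 CPM in VDS-F1, a log2-fold change of -2.03 with a standard error of 0.15 and an adjusted p of 7.73e-06 in edgeR. The log2-fold change of Cyp17a1 was 1.89 with a standard error of 0.29 and an adjusted p of 0.00197, and its lowest VDD-F1 value in this set, 14.9 CPM, was above the highest VDS-F1 value, 6.37 CPM. Hsd17b2 had an adjusted p of 0.00266 with a log2-fold change of -0.60 and a standard error of 0.099, and its VDD-F1 mice at 121, 117 and 94.3 CPM were all below the VDS-F1 mice at 164 to 180 CPM.

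In the 5 mice without a recorded weight (3 VDD-F1 and 2 VDS-F1), edgeR called 0 of the 10 and 0 of 12541 genes, and 1 of the 10, Hsd3b2, had an unadjusted p under 0.05, against 3.77% of all genes. Hsd3b5 was at 82.1, 2.56 and 112 CPM in VDD-F1 and 197 and 154 CPM in VDS-F1, and its log2-fold change of -1.43 had a standard error of 1.08. In this small set the diets overlapped neither for Hsd3b5 nor for Hsd3b2, Hsd11b1 and Akr1c6, and the share over all genes was not taken. Hsd3b2 was at 19.9, 16.6 and 17.8 CPM in VDD-F1 and at 26.8 and 31.5 CPM in VDS-F1 (log2-fold change -0.68, standard error 0.16), while in the other set its log2-fold change was 0.037 with a standard error of 0.12. The log2-fold change of Cyp17a1 was 0.41 with a standard error of 0.45.

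Whether the diets differed by set was tested as an interaction. None of the 10 genes passed the thresholds in edgeR, against 0.0803% of all genes, or in DESeq2, where the share of all genes was not taken. In edgeR, 2 had an unadjusted p under 0.05, against 9.01% of all genes. These were Hsd3b2 (interaction 0.72 on the log2 scale, standard error 0.20, adjusted p = 0.277) and Cyp17a1 (1.49, standard error 0.58, adjusted p = 0.473), so a difference between the sets in the diet contrast was not shown for either. Without VDD2, 1 of the 10 was called for the interaction, Hsd3b5, against 1.97% of the genes tested in that fit.

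**Figure D4:**
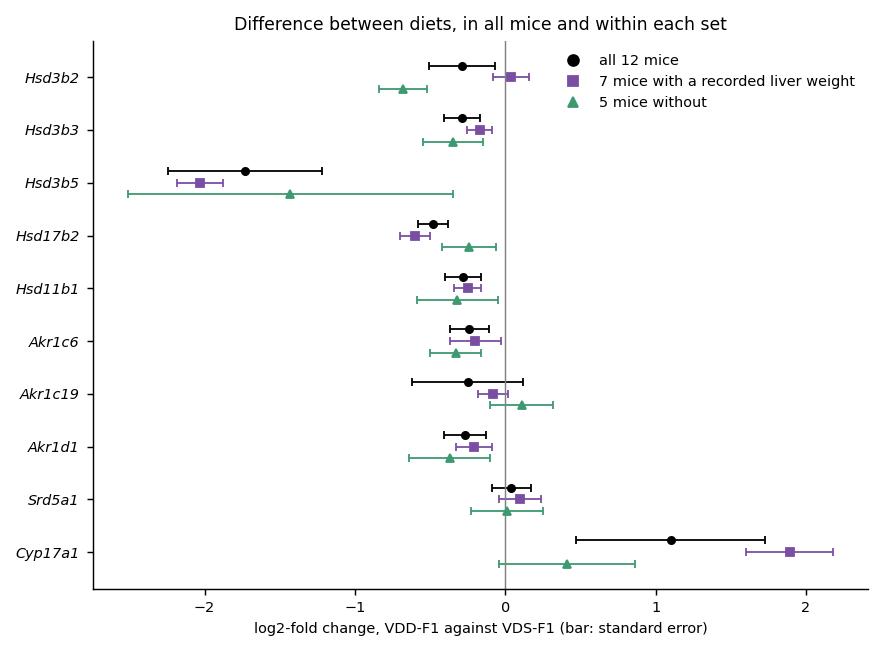
Log2-fold change between VDD-F1 and VDS-F1 of each enzyme, with its standard error as a bar, in all 12 mice (circles), in the 7 mice with a recorded liver weight (squares) and in the 5 without (triangles). Hsd3b5 is left of 0 in each fit, with standard errors of 0.51, 0.15 and 1.08, and the triangles and squares of Hsd3b2 lie apart.

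With the set as a covariate, the diet contrast of all 12 mice kept its size for Hsd3b5 (log2-fold change -1.78, standard error 0.53, adjusted p = 0.115) and Hsd17b2 (-0.46, standard error 0.10, adjusted p = 0.0692). For Cyp17a1 the log2-fold change was 1.22, and its standard error was 0.35 in place of 0.63 (adjusted p = 0.104). That of Akr1c19 was -0.005 with a standard error of 0.11.

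Other genes of steroid metabolism were read from lists. The counts of these lists at an unadjusted p under 0.05 stand against 9.55% of all genes higher and 6.29% lower in VDD-F1, and their calls in DESeq2 and limma voom against 2.03% and 2.02%. Of 25 further genes of the same enzyme families, 14 were tested and edgeR, DESeq2 and limma voom each called 0 between the diets, with 2 higher and 1 lower at an unadjusted p under 0.05 in edgeR. The smallest p was that of Hsd17b13, a lipid droplet enzyme, at 402 ± 46.5 CPM in VDD-F1 and 293 ± 10.5 CPM in VDS-F1 (SD, n = 6 each; log2-fold change 0.45, standard error 0.088, adjusted p = 0.064), with 323 CPM as the lowest VDD-F1 and 305 CPM as the highest VDS-F1 value. Akr1c14, a reductase of 3-keto steroids, had a log2-fold change of -0.36 (adjusted p = 0.258), Srd5a3 one of 0.37 (adjusted p = 0.266) and Akr1c20 one of -0.26 (adjusted p = 0.382). The median of the 14 was -0.15. Between the sets, Akr1c13 had an adjusted p of 0.0447 with a log2-fold change of 0.40.

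Of 14 steroid cytochromes P450 and their redox partners, 8 were tested, with 0 called in edgeR, 1 in DESeq2 and 1 in limma voom, and 0 higher and 2 lower at an unadjusted p under 0.05 (9.55% and 6.29% of all genes). The gene called by the other tools was Cyp7b1, an oxysterol hydroxylase that is higher in male liver. Its levels were 81.1 ± 46.6 CPM (13.3 to 148 CPM) in VDD-F1 and 260 ± 74.1 CPM (144 to 332 CPM) in VDS-F1, with a log2-fold change of -1.68, a standard error of 0.41 and an adjusted p of 0.0918 in edgeR. Cyb5a, the cytochrome b5 that aids the lyase step of CYP17A1, had a log2-fold change of -0.30 (adjusted p = 0.223). The median of the 8 was -0.18.

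Of 14 steroid receptors and carriers, 10 were tested, with 0 called in edgeR and DESeq2 and 1 in limma voom, Nr1i3, the xenobiotic receptor CAR, at 24 ± 17.8 CPM in VDD-F1 and 42.4 ± 9.87 CPM in VDS-F1 (log2-fold change -0.83, adjusted p = 0.273 in edgeR). With Fkbp4 (-0.29, adjusted p = 0.301), 2 were lower and 0 higher at an unadjusted p under 0.05. Serpina6, the carrier of glucocorticoids in blood, had a log2-fold change of 0.42 (adjusted p = 0.383). The median of the 10 was -0.0048.

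All 15 glucocorticoid target genes were tested, with 0 called in edgeR, 2 in DESeq2 (Cdkn1a and Mt1) and 1 in limma voom (Cdkn1a), and with 4 higher and 1 lower at an unadjusted p under 0.05 (9.55% and 6.29% of all genes). Cdkn1a, a cell cycle inhibitor that also answers to p53, was at 30.2 ± 13.2 CPM in VDD-F1 and 10.7 ± 5.53 CPM in VDS-F1 (log2-fold change 1.49, standard error 0.35, adjusted p = 0.0855). The metallothionein genes Mt1 and Mt2, which also respond to metals, were higher by 1.88 and 2.45 on the log2 scale (adjusted p = 0.118 and 0.133). Tsc22d3, which glucocorticoids induce, had one of -0.67 (adjusted p = 0.28), and the median of the 15 was 0.0093. Between the sets, edgeR called 0 of the 15, with 0 higher and 3 lower at an unadjusted p under 0.05 (7.99% of all genes lower), and DESeq2 called 1, against 1.32% of all genes. This was Mt1 (log2-fold change -1.42, adjusted p = 0.0932 in edgeR).

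Hsd3b5 belongs to the genes that are higher in male than in female mouse liver, and 10 others of that kind were read with 10 that are higher in females. All 10 male-biased genes were tested, and 9 had a lower and 1 a higher mean in VDD-F1, with 4 lower and 0 higher at an unadjusted p under 0.05 (6.29% and 9.55% of all genes) and a median log2-fold change of -0.50. None was called in edgeR, while DESeq2 called 1 (Cyp7b1) and limma voom 3 (Cyp2d9, Cyp7b1 and Susd4). Cyp2d9 was at 629 ± 387 CPM in VDD-F1 and 1246 ± 149 CPM in VDS-F1 (log2-fold change -0.99, adjusted p = 0.144), and Susd4 at 9.77 ± 13.3 CPM and 37.1 ± 5.52 CPM (-1.95, adjusted p = 0.224). Between the sets, the log2-fold change of Susd4 was -1.96 (adjusted p = 0.221 in edgeR), and DESeq2 called it. Moxd1 was at 1.04 ± 1.79 CPM and 29.3 ± 43.4 CPM (-4.91, adjusted p = 0.122), and it was called between the sets, with a log2-fold change of -5.98 and an adjusted p of 4.97e-05 in edgeR, and DESeq2 also called it. Of the female-biased genes, 3 were tested, 1 was higher and 0 lower at an unadjusted p under 0.05, and 0 were called in edgeR and limma voom and 1 in DESeq2. This was Cyp2a4, at 0 to 40.4 CPM in VDD-F1 and 0 to 0.416 CPM in VDS-F1 (adjusted p = 0.0627 in edgeR). Prlr, the prolactin receptor, had an adjusted p of 0.0269 between the sets with a log2-fold change of 0.73.

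Markers of other liver cells overlapped between the diets in their sums. Stellate cell markers summed to 304 to 875 CPM in VDD-F1 and 286 to 444 CPM in VDS-F1, with 6 of 6 markers higher in VDD-F1 and with Col1a1 and Col3a1 called by DESeq2 and limma voom but 0 in edgeR. The sums were 23.9 to 115 CPM and 27.6 to 51 CPM for cholangiocytes (5 of 5 markers higher in VDD-F1), 79.8 to 231 CPM and 122 to 241 CPM for Kupffer cells (2 of 6 higher), 195 to 240 CPM and 195 to 268 CPM for sinusoidal endothelium (2 of 6 higher), and 0.527 to 7.99 CPM and 1.14 to 3.01 CPM for lymphocytes (2 of 2 markers tested higher). The part of these cells in the values of the 10 enzymes was not tested.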

How the data were processed

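Liver RNA of 12 male mice was sequenced with 1 library each. The authors aligned the reads with STAR to GRCm38 and deposited the raw count of each gene, not normalized, with 1 column for each strand setting. The reverse-strand column was used, which held 92.7% to 95.8% of the stranded counts. Per library, 16432 to 18901 genes had counts, and rows that name no gene were left out of the library sizes. Names and positions came from GENCODE M21, where the authors used M15 (52403 of 52636 genes matched). A mean count of 12 or more was required for the test in edgeR 4.0.16 and R 4.3.3 (TMM, quasi-likelihood fit, legacy form), which was checked on simulated counts. Other fits used DESeq2 1.42.0 and limma 3.58.1. Exact permutation tests used log2 CPM with a prior count of 2, and Python 3.11.15 with Biopython 1.88 aligned the promoters. RPKM used the union of annotated exons. CPM and fold changes reflect relative abundance only. Diet groups came from the labels, and the set of mice from the liver weights in the study's supplement, matched by mouse number. The 10 genes, the lists and the tests were chosen with earlier results of these data known, and up to 4 genes of each list were named by the smallest p, except 1 gene that is not reported here.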

Additional observations from a re-analysis of the deposited data

How the results depend on the processing

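Between the diets, the number of the 10 enzymes called was 0 in edgeR, 1 (Hsd3b5) in limma voom with sample weights, 2 (Hsd3b5 and Cyp17a1) in the 7 mice with a recorded liver weight, and 0 to 1 when each mouse was left out in turn. The 1 was Hsd3b5 without VDD2. The number of all genes called was 5 in edgeR and 253 in DESeq2, 252 in limma voom, 17 in the newer form of edgeR, 70 without a filter, 21 with the set as a covariate, 536 in the 7 mice and 0 in the other 5. Leaving out 1 mouse gave 0 to 260 genes, with 260 without VDD1, 94 without VDD3, 12 without VDS2 and 7 without VDD2. It gave 5 without VDS1, 1 without VDS6 and 0 without VDD4, VDD5, VDD6, VDS3, VDS4 or VDS5. With a replicate block on the mouse number, 17 genes and 0 of the 10 enzymes were called. Between mice of the same number, the correlation of deviations from the group means was -0.0762 to 0.103 over the 6 numbers. Mice of different numbers were not compared in this way, so pairing by number was not settled. Of 230 diet values of single enzymes, 222 kept their direction and side of the threshold, 4 came to pass it (Hsd3b5 in limma voom at -2.09, in the 7 mice and without VDD2, and Cyp17a1 in the 7 mice) and 4 changed sign. These 4 were Hsd3b2 at 0.037 in the 7 mice, Akr1c19 at 0.11 in the other 5, and Srd5a1 at -0.0052 without VDD1 and -0.021 without VDD4 (-0.021 to 0.13 over all mice left out). Between the sets, 2 enzymes were called in each alternative run and 155 of 160 values were kept. The sign changed for Hsd11b1 (-0.10, -0.032 and -0.0019 without VDD2, VDD6 and VDS3; range -0.10 to 0.062), Hsd3b5 (0.12 without VDD3; range -0.47 to 0.12) and Akr1d1 (9.5e-05 without VDD3; range -0.22 to 9.5e-05). For the interaction, 0 to 1 enzymes were called when a mouse was left out, the 1 being Hsd3b5 without VDD2. The cause of these changes was not tested, and the subsets also hold fewer mice. Leaving out mice, Akr1c19 and Cyp17a1 were called between the sets in 12 of 12 fits, and the adjusted p of Hsd17b2 between the diets ran from 0.0343 to 0.202. Low counts limit the precision of Hsd3b5 in VDD2 (49 counts) and of Cyp17a1 in VDS3 (27 counts).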
